A study of Mus musculus with 2 samples.

Results

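The Gadd45, sestrin and growth arrest genes are 10 stress-induced genes that restrain the cell cycle or protein synthesis: Gadd45a, Gadd45b, Gadd45g, Sesn1, Sesn3, Ddit4, Ddit4l, Cdkn1a, Cdkn1b and Trp53inp1. The genes were chosen by name, and each array probe whose transcript belongs to one of them was taken, which gave 12 probes of 28329 named probes (10 of 21366 named genes). The RNA was that of gastrocnemius, a calf muscle, from male mice aged 25 weeks. One pool held RNA of 6 wild-type control mice, and the other held RNA of 5 FOXO1-Tg mice, which overexpress the transcription factor FOXO1 specifically in skeletal muscle. The promoter of the transgene and the number of founder lines were not given in the sources used here. Both pools were read on 1-color Agilent arrays of the mouse genome, 1 array each, which leaves the spread between mice unmeasured and allows no p-value.

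FOXO1 is a forkhead transcription factor that is held in the cytoplasm by insulin signaling and enters the nucleus when that signaling is low, as in fasting. The Gadd45 proteins are small nuclear proteins that bind and activate the kinase MAP3K4 at the head of the p38 and JNK pathways. They also bind PCNA and the mitotic kinase CDK1. In mice, Gadd45a is known as a gene whose induction, by ATF4 in fasted muscle and also in denervated muscle, promotes fiber atrophy. Sestrins, Ddit4 and Ddit4l inhibit mTORC1, the kinase complex that drives protein synthesis. Cdkn1a and Cdkn1b encode inhibitors of cyclin-dependent kinases, and Trp53inp1 encodes a cofactor of p53 with a role in autophagy.

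The values below are the processed spot signals of the scanner software, which had background subtracted and were not scaled between arrays. A level is the log2 of the signal over its array's 75th percentile (771 for wild-type and 844 for FOXO1-Tg), and a ratio is the difference of these levels, FOXO1-Tg minus wild-type. Each ratio is given with the scanner's own error, which was 0.20 on the log2 scale for the median gene and covers the array measurement only. It was also 0.20 for the brighter or only probe of every member, at signals from 536 to 151653. The 95% intervals drawn from it therefore have nearly the same width for each member. Those intervals rest on the software's error estimate, not on a spread measured over mice or spots. Over probes with at least 8 spots, the SD of the log2 ratio over spots was 0.05 at the median. On the arrays, 65.5% (wild-type) and 65.8% (FOXO1-Tg) of spots were well above background, with 0 saturated. The arrays shared 1 slide and 1 scan. All 12 muscle fiber markers were well above background on both arrays; 1 of them was past 2-fold downward, and their median log2 ratio was -0.11 (0.02 with no scaling between arrays). Foxo1, which checks the labels, was measured by its brighter probe at 4540 (wild-type) and 279457 (FOXO1-Tg), which is a log2 ratio of 5.81. The dimmer Foxo1 probe stood at 2853 and 3188, with a log2 ratio of 0.031.

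A Gadd45 gene, a sestrin and Ddit4 were more than 2-fold higher in the FOXO1-Tg pool. Gadd45a was 7.57-fold higher, Ddit4, the mTORC1 inhibitor also called REDD1, was 2.49-fold higher, and Sesn1 was 2.20-fold higher. No member was more than 2-fold lower. The cyclin-dependent kinase inhibitors Cdkn1a and Cdkn1b were at 0.895-fold and 0.969-fold. Thus 3 of 10 members were more than 2-fold higher, set beside 4.20% of the 16660 genes detected on at least 1 array, and 0 of 10 were more than 2-fold lower, set beside 3.86%. With the 75th percentile scaling, the same 3 members, and no other, passed 1.5-fold, set beside 9.18%. Gadd45g and Trp53inp1 passed it too with scaling by the median (log2 ratios 0.66 and 0.64) and with no scaling between arrays (0.68 and 0.66). With normexp background correction and quantile normalization, both passed it as well (0.59 and 0.62). Gadd45g alone of the pair also passed it with quantile (0.60) and loess (0.65) normalization. In whole muscle, a change in the number of cells of a type and a change in RNA per cell cannot be told apart. All 10 members were well above background on both arrays, by their brighter probe where they had 2. The lowest of these spots stood at 17.1 times its local background. Of the members, 8 were read by 1 spot on each array.

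**Figure D1:**
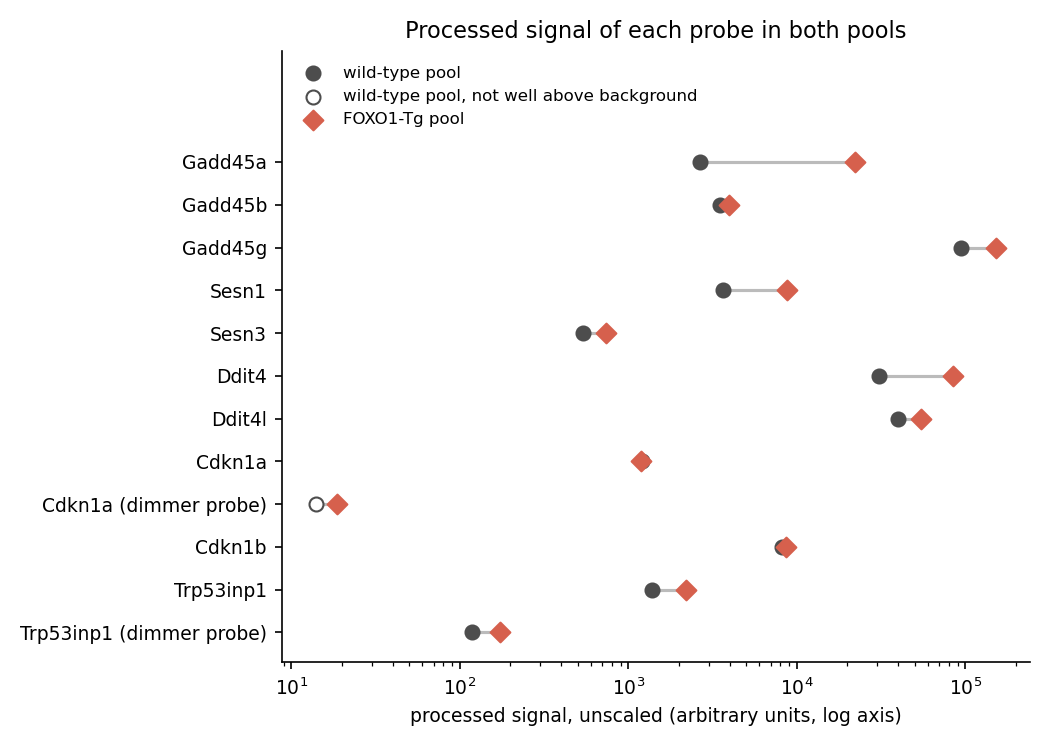
Processed signal (arbitrary units, log axis, not scaled between arrays) of each of the 12 probes of the 10 genes, with 1 point for the wild-type pool (circle) and 1 for the FOXO1-Tg pool (diamond). The widest gap is that of Gadd45a (2673 and 22144), and both points of Cdkn1a nearly coincide (1211 and 1184); the brightness of different probes gives no order of RNA amounts between genes.

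Among the Gadd45 genes, Gadd45a, Gadd45b and Gadd45g had 3 different ratios. The Gadd45a probe (transcript NM_007836) read 2673 for wild-type and 22144 for FOXO1-Tg. This gap amounts to a log2 ratio of 2.92 (scanner error 0.20, 95% interval from that error 2.52 to 3.32). Gadd45a had rank 58 from the highest among the 16660 detected genes. Gadd45b, a member induced by cytokines and NF-κB, had signals of 3523 and 3961. Its log2 ratio of 0.040 (interval -0.36 to 0.44) was within the scanner error of 0. Gadd45g, the third paralog, read 94967 for wild-type and 151653 for FOXO1-Tg. Its log2 ratio was 0.55 (interval 0.15 to 0.95), or 1.46-fold. The ratio of Gadd45a exceeded that of Gadd45b by 2.88 (interval 2.32 to 3.45) and that of Gadd45g by 2.37 (interval 1.81 to 2.94). The ratios of Gadd45g and Gadd45b differed by 0.51, with an interval of -0.06 to 1.07 that includes 0. The paralog pairs set side by side here and below were picked with their values known. Whether these gaps exceed the spread between mice cannot be told from pools. The promoters of the 3 paralogs are shown because the genes share a protein family but not a ratio. They are RefSeq sequences of GRCm38.p6, from 250 bases before to 50 bases after the annotated start, and capitals mark matches to any of the 4 motifs described further on.
Gadd45a, chr6:67037358-67037657, reverse strand: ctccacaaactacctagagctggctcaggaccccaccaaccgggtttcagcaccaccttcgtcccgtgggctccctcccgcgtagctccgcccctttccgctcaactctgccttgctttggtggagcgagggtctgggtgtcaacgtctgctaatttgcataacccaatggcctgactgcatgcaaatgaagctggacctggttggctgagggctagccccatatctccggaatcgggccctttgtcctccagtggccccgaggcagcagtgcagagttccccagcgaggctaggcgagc
Gadd45b, chr10:80929841-80930140, forward strand: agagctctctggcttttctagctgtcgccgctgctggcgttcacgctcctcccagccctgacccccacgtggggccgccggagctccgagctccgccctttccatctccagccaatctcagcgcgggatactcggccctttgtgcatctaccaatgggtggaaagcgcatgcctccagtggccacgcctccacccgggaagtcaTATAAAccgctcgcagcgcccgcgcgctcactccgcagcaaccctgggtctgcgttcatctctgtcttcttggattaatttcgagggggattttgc
Gadd45g, chr13:51846425-51846724, forward strand: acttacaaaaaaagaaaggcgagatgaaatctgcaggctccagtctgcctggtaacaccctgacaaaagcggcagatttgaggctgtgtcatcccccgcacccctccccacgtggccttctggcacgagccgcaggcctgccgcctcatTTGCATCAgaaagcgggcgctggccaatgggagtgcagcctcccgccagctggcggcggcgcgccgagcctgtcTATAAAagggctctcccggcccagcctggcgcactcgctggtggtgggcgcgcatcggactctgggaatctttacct
The Gadd45a window held no match. The Gadd45b window held TATAAA at base 205, and that of Gadd45g held TATAAA at base 224 and TGATGCAA, on its reverse strand, at base 150.

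**Figure D2:**
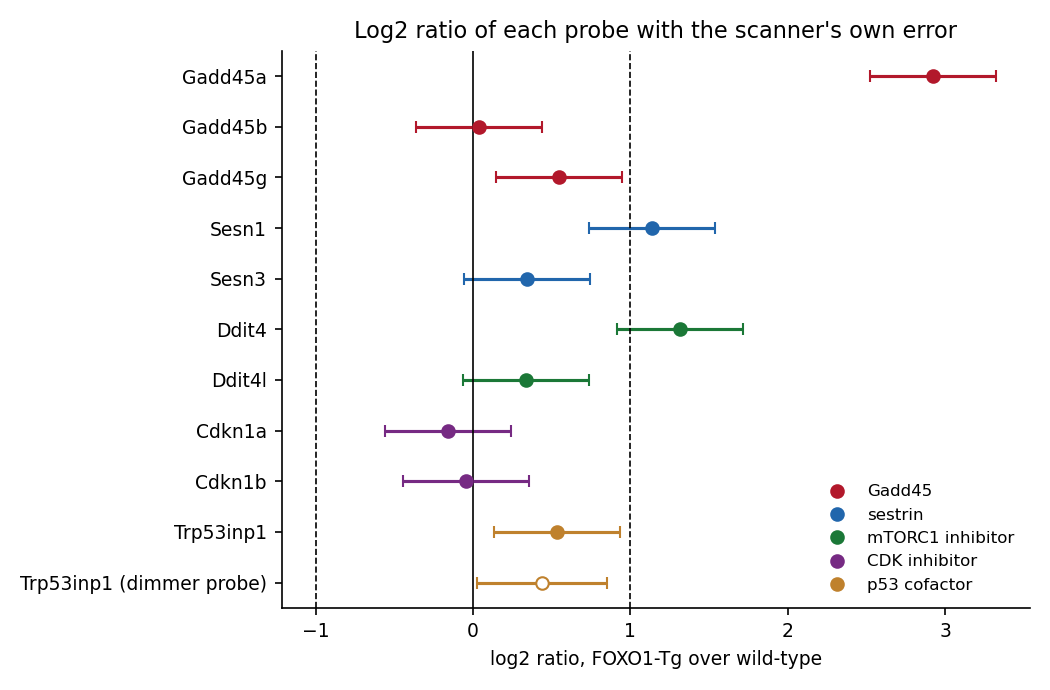
Log2 ratio (FOXO1-Tg over wild-type) of each probe detected on both arrays, with bars for the 95% interval from the scanner's own error, dashed lines at 2-fold and an open point for the dimmer Trp53inp1 probe. Gadd45a (2.92) lies beyond 2-fold with its whole bar, whereas the bars of Ddit4 (0.92 to 1.72) and Sesn1 (0.74 to 1.54) cross the 2-fold line.

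Of the sestrins, Sesn1 was higher in the FOXO1-Tg pool with a 95% interval wholly above 0, and the interval of Sesn3 included 0. Sestrins bind the GATOR complexes, through which a shortage of leucine is passed to the Rag GTPases and mTORC1. The Sesn1 probe (transcript NM_001162908) read 3654 for wild-type and 8792 for FOXO1-Tg, giving a log2 ratio of 1.14 (interval 0.74 to 1.54). Sesn3, known in cultured cells as a target of FOXO factors, had signals of 536 and 742. Its log2 ratio was 0.34 (interval -0.06 to 0.74), or 1.27-fold. Sesn2, the paralog induced by ATF4, is no member of the group and read 1375 and 1350, giving a log2 ratio of -0.16. The ratio of Sesn1 exceeded that of Sesn3 by 0.80 (interval 0.23 to 1.36) and that of Sesn2 by 1.29 (interval 0.73 to 1.86). RefSeq gives Sesn1 a pair of start sites, and whether the probe reads transcripts of both was not tested. Their windows are shown because the first holds the only forkhead match of the group.
Sesn1, first start, chr10:41810324-41810623, forward strand: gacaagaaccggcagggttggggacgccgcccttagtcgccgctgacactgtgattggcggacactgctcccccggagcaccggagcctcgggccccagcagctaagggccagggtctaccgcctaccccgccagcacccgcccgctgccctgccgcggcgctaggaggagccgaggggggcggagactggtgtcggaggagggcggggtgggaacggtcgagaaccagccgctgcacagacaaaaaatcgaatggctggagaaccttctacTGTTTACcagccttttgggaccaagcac
Sesn1, second start, chr10:41887189-41887488, forward strand: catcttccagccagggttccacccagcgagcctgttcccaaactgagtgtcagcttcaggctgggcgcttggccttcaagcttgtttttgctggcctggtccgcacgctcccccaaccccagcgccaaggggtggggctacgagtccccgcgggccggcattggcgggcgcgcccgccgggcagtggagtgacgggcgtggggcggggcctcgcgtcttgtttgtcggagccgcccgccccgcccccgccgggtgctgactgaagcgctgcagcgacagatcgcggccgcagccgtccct
The forkhead match is GTAAACA read on the reverse strand at base 273, that is, 23 bases into the annotated transcript.

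Of the DDIT4 pair, Ddit4 passed 2-fold and Ddit4l did not. Ddit4 is induced by hypoxia, glucocorticoids and fasting and acts through the TSC complex, and Ddit4l (REDD2) is its paralog in muscle. The Ddit4 probe (transcript NM_029083) read 30950 for wild-type and 84293 for FOXO1-Tg, giving a log2 ratio of 1.32 (interval 0.92 to 1.72). It had rank 441 from the highest, and Sesn1 had rank 572. Ddit4l had signals of 39653 and 54665. Its log2 ratio of 0.33, or 1.26-fold, had an interval (-0.07 to 0.73) that includes 0. The ratios of the paralogs differed by 0.98 (interval 0.42 to 1.55). The Ddit4 promoter, shown as that of the second most raised member, held none of the 4 motifs.
Ddit4, chr10:59951721-59952020, reverse strand: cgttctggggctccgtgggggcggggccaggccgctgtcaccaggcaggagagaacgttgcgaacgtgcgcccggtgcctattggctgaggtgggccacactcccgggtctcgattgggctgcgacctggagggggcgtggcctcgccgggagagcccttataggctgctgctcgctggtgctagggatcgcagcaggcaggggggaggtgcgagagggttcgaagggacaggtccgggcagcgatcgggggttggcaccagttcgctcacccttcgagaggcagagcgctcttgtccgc

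Neither cyclin-dependent kinase inhibitor of the group differed by more than the scanner error. Cdkn1a, which encodes p21 and is the best known target of p53, is read by a probe spotted 10 times. Over these spots, the signal ran from 1132 through a median of 1216 to 1273 in the wild-type pool, and from 1109 through 1202 to 1230 in the FOXO1-Tg pool. The signals therefore overlapped before scaling. After scaling, each of the 10 spots had a ratio below 0, from -0.20 to -0.11, with a mean of -0.16 (SD over spots 0.03, scanner error 0.20, interval -0.56 to 0.24). The replicate spots share 1 hybridization and are not replicates of the pools. With no scaling between arrays the mean was -0.03. A second Cdkn1a probe, for transcript NM_001111099, was dim, at 14.0 for wild-type (not well above background) and 18.8 for FOXO1-Tg. It gives no fold, since 18.8 stood below the lowest well-above-background level of the wild-type array once both were scaled. Cdkn1b, which encodes p27 and is known as a FOXO target in cultured cells, had signals of 8203 and 8692. Its log2 ratio was -0.05 (interval -0.45 to 0.35), and its sign changed under 5 of 12 alternative settings, up to 0.08. The ratios of Cdkn1a and Cdkn1b differed by -0.11 (interval -0.68 to 0.45).
The third gene of the Cip/Kip family, Cdkn1c, is no member of the group and stood apart from both. It read 9035 for wild-type and 40817 for FOXO1-Tg, giving a log2 ratio of 2.05. This exceeds the ratio of Cdkn1a by 2.21 (interval 1.64 to 2.77).

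Trp53inp1 was read by a pair of probes for the same transcript, and both were higher in the FOXO1-Tg pool. The brighter probe read 1387 and 2193, giving a log2 ratio of 0.53 (interval 0.13 to 0.93), or 1.45-fold. The dimmer probe read 118 and 174, giving a log2 ratio of 0.44 (interval 0.02 to 0.85). It is the only member for which 2 probes gave a ratio, and these ratios differed by less than the scanner error. Trp53inp2, its paralog with a role in autophagosome formation, read 145017 and 139524, and its log2 ratio of -0.19 lies below that of Trp53inp1 by 0.72 (interval 0.15 to 1.28).

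Over the group, the median log2 ratio was 0.44, set beside -0.06 for all 16660 detected genes. The ratio was above 0 for 8 of 10 members, set beside 41.7% of the 15493 genes detected on both arrays. The interval from the scanner error lay wholly above 0 for 5 of 10 members (Gadd45a, Ddit4, Sesn1, Gadd45g and Trp53inp1), set beside 13.0% of those genes, and wholly below 0 for 0 of 10, set beside 14.8%. Because the members were named with earlier results of these arrays known, these shares describe the group and are no test of it. The middle 95% of log2 ratios over the genes detected on both arrays ran from -1.01 to 1.18. Gadd45a and Ddit4 were above this range and Sesn1 was just inside it.

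**Figure D3:**
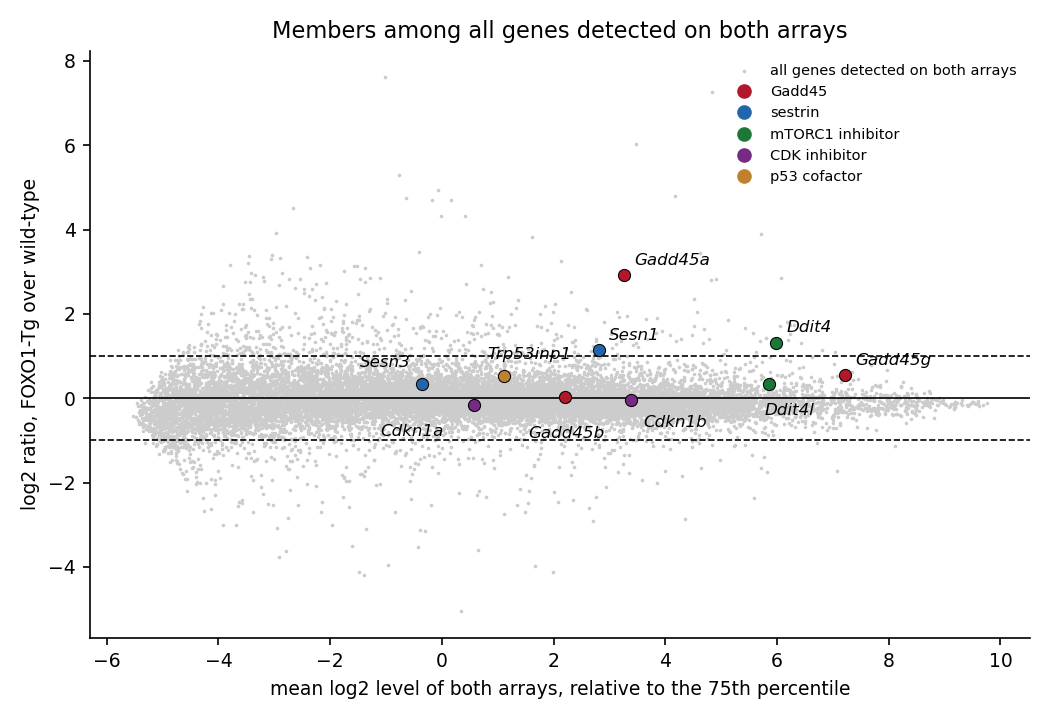
Log2 ratio (FOXO1-Tg over wild-type) against the mean log2 level of both arrays for the 15493 genes detected on both arrays (grey), with the 10 members colored by role and dashed lines at 2-fold. Gadd45a (2.92), Ddit4 (1.32) and Sesn1 (1.14) lie above the upper line, and the other 7 lie between the lines.

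The promoter windows of the members shared few motif matches. The RefSeq table held windows for 9 of the 10 genes, 11 windows in all because Sesn1 and Cdkn1a have 2 each, and none for Trp53inp1. The motifs searched on both strands were GTAAACA, the forkhead motif bound by FOXO proteins; CAAAACA, a variant found in insulin-responsive genes; TGATGCAA, a composite site of C/EBP and ATF4; and TATAAA, the TATA box. The last pair was added later, with the sequences at hand. GTAAACA was in 1 of 11 windows (Sesn1), set beside 3.65% of all 32851 windows of 300 bases, and CAAAACA was in 0 of 11, set beside 6.28%. TGATGCAA was in 1 of 11 (Gadd45g), set beside 0.895%, and TATAAA was in 3 of 11 (Gadd45b, Gadd45g and Ddit4l), set beside 13.6%. The TATAAA matches began at -46 (Gadd45b), -27 (Gadd45g) and 36 (Ddit4l) from the annotated start, the last inside the transcript. No matches overlapped in the members' windows. Of the 3 members past 2-fold, only Sesn1 had a match to any of the 4 motifs, and sequence outside the windows was not used here. The windows of Gadd45a, Gadd45b and Gadd45g held 14, 24 and 21 CpG dinucleotides, the Ddit4 window held 26, and the median over all windows was 7.

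Among the partners of the Gadd45 proteins and the MAP kinases they act on, 2 of 18 genes had a ratio above 0, set beside 41.7% of all genes detected on both arrays. Counts of higher and lower genes in these lists are of genes past 2-fold, to be set beside the 4.20% and 3.86% of all detected genes, and medians are log2 ratios beside the -0.06 of all. All 18 genes were detected on both arrays, 1 was more than 2-fold lower, 0 were more than 2-fold higher, and the median was -0.29. With no scaling between arrays, 13 of the 18 genes had a ratio below 0, set beside 16 with scaling. The median was then -0.17, and that of all genes on both arrays was 0.06. The gene past 2-fold was Map2k6, a kinase that activates p38, which read 6651 and 1572, giving a log2 ratio of -2.21. Map3k4, the kinase that Gadd45 proteins bind, had -0.55, and Mapkapk3, a kinase below p38, had -0.90. The highest ratios were those of Mapk13, a p38 isoform, at 0.34 and the mitotic cyclin Ccnb1 at 0.20.
In the amino acid sensing pathway of the sestrins, 1 of 18 genes was more than 2-fold lower, 0 were higher, and the median was -0.16 (-0.03 with no scaling). Rragb, a Rag GTPase, had -1.31 at dim signals of 53.3 and 23.4, and its relative Rragd had -0.79. The highest were Sec13 at 0.12 and Rragc at 0.11. Of 16 genes of the TSC complex and mTORC1, through which Ddit4 acts, 1 was more than 2-fold higher and 0 were lower, with a median of -0.13 (-0.0021 with no scaling). The higher gene was Eif4ebp3, a repressor of translation held in check by mTORC1, which read 2270 and 10573, giving a log2 ratio of 2.09. Deptor, an inhibitor of mTOR, had 0.89 and passed 2-fold with no scaling, whereas Tsc2 had -0.46 and Akt1s1 had -0.37.

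Of 6 other genes named as inhibitors of cyclin-dependent kinases, 2 were more than 2-fold higher. These were Cdkn1c and, at signals of 38.0 and 84.1, Cdkn2a at 1.02. Cdkn3, well above background in the wild-type pool alone (at a dim signal of 28.3), was at least 2.12-fold lower. Cdkn2d had -0.30, and the median was -0.0012. Among the cyclins, kinases and Rb family genes that such inhibitors act on, 17 of 18 were detected, 1 was higher, 0 were lower, and the median was 0.18. The gene past 2-fold was E2f2, a transcription factor of the cell cycle, at 1.69, followed by Rbl1 at 0.65. The lowest were Ccne2, at least 1.63-fold lower, and Ccne1 at -0.57. None of the 13 proliferation markers detected, of 16, passed 2-fold, and their median was -0.01, from Birc5 at 0.38 and Mki67 at 0.34 to Bub1b and Kif11, well above background in the wild-type pool alone.
Of p53 and its targets, 23 of 24 were detected, 3 were higher, 1 was lower, and the median was -0.05. With no scaling, the median of those on both arrays was 0.07. Eda2r, a receptor of the tumor necrosis factor family, had 1.55, and Perp, a desmosome component, had 1.28. Pmaip1, not well above background for wild-type, was at least 2.41-fold higher, and Polk, a DNA polymerase, had -1.18. Trp53 itself had -0.64. Of 15 other growth arrest genes, 3 were higher and 0 were lower, with a median of 0.31. These were Gas1 at 1.99, Pml at 1.42 and the antiproliferative gene Btg1 at 1.40, whereas Tob1 and Tob2 had -0.94 and -0.65. The other 2 probes of Gas1, both dimmer, had 0.21 and 1.12.

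ATF4 targets and denervation-responsive genes belong to the known settings of Gadd45a induction in muscle. Of 18 ATF4 pathway genes, 15 were detected, 3 were higher, 0 were lower, and the median was 0.18. They were Chac1, which degrades glutathione, at 1.74, and the serine synthesis enzymes Phgdh at 1.59 and Psat1 at 1.33. The brighter Atf4 probe had 0.15 and the dimmer -0.05, and the lowest were Slc7a5 at -0.58 and Gdf15 at -0.44. Of 14 denervation-responsive genes, all were detected on both arrays, 6 were more than 2-fold higher, 1 was lower, and the median was 0.63. The list set no direction of response for its genes. The embryonic myosin light chain gene Myl4 had 3.90 and Gdf5, a BMP ligand, had 1.85. Dach2, a repressor of myogenin, had -1.96, and Hdac4 had -0.41.

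**Figure D4:**
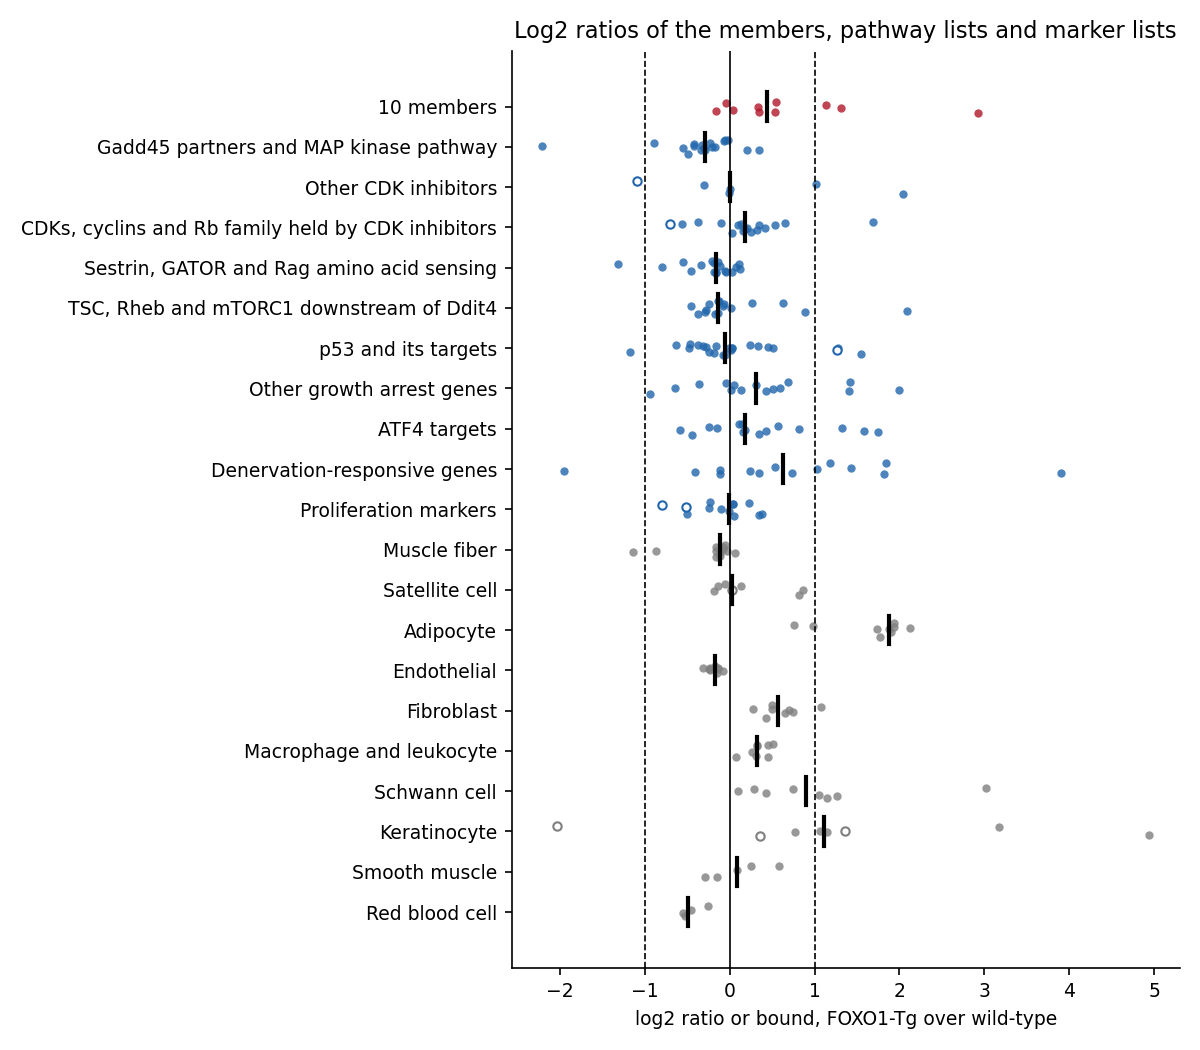
Log2 ratio or bound (FOXO1-Tg over wild-type) of each detected gene in the members (red), 10 pathway lists (blue) and 10 cell type marker lists (grey), with black bars for medians, dashed lines at 2-fold and open points for genes well above background on 1 array. Among the pathway lists, the median of the members (0.44) lies between that of denervation-responsive genes (0.63) and that of other growth arrest genes (0.31). The medians of fibroblast markers (0.57) and of macrophage and leukocyte markers (0.32) also lie between those of these pathway lists. Adipocyte markers have the highest median (1.88).

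Some marker lists of other cell types differed as well, and the adipocyte list had the highest median ratio (1.88) of the 10 marker lists. Among 10 adipocyte markers, 9 were detected, and 7 of these passed 2-fold upward and 0 downward. Their signals summed to 103235 for wild-type and 302120 for FOXO1-Tg, and Ucp1 was not well above background on either array. Of 8 keratinocyte markers, 5 were higher and 1 was lower, with summed signals of 2418 and 9576. Of 8 Schwann cell markers, 4 were higher and 0 were lower (73076 and 103386), and of 8 fibroblast markers, 1 was higher and 0 were lower (312974 and 441827). None of 8 macrophage and leukocyte markers (41118 and 51297), 9 endothelial markers (38109 and 38209), 7 satellite cell markers (31098 and 30743) and 5 smooth muscle markers (58747 and 57578) passed 2-fold. Red blood cell markers had summed signals of 123978 and 105036, with 0 of 4 detected genes past 2-fold. The part of other cell types in the ratios of Gadd45a, Ddit4 and Sesn1 was not tested.

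**Figure D5:**
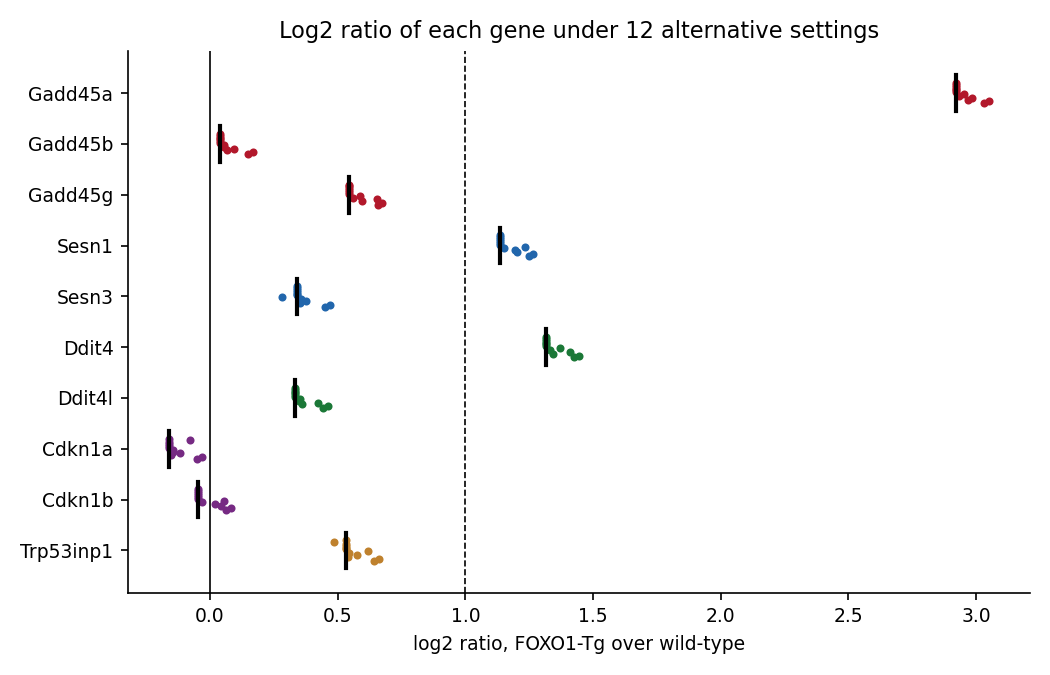
Log2 ratio (FOXO1-Tg over wild-type) of each of the 10 genes as reported (black bar) and under 12 alternative settings (points), with a dashed line at 2-fold. Gadd45a ran from 2.92 to 3.05, Ddit4 from 1.32 to 1.45 and Sesn1 from 1.14 to 1.27, and Cdkn1b crossed 0.

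Across 12 alternatives of scaling, background correction and probe handling, the members changed little. Gadd45a, Ddit4 and Sesn1 were more than 2-fold higher under all 12, and no other member passed 2-fold under any of them. The ratios of Gadd45a, Ddit4 and Sesn1 were unchanged with the deposited value table, either filter on dim probes, or a floor. They were also unchanged with outlier spots kept and with the median over probes. Gadd45g ran from 0.55 to 0.68, Trp53inp1 from 0.49 to 0.66, Sesn3 from 0.28 to 0.47, Ddit4l from 0.33 to 0.46 and Gadd45b from 0.04 to 0.17.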

How the data were processed

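Each RNA pool was hybridized to 1 Agilent 1-color array. The deposited intensity values are the authors' background-subtracted processed signals, unscaled between arrays, of Agilent Feature Extraction; the headers name version 11.0.1.1, whereas the submitters' processing notes give 9.5. The deposited value table was identical to them (largest difference 0). Here, log2 signals were set relative to each array's 75th percentile over 59305 non-control spots. After 237 spots with an outlier flag on an array had been dropped, spots were averaged by probe, leaving 55670 of 55681 probes. Detection of a probe required 50% or more of its spots to be well above background. Probes were named by matching transcript accessions, without versions, to RefSeq genes of GRCm38.p6 (28329 probes). Since the array design uses mm9, no position was taken from that table, and probes named only by position or by other databases were not used. The detected probe with the highest mean level stood for a gene. Probes detected on 1 array have a bound: on the other array, the probe's own level or that array's lowest well-above-background signal was used, whichever was higher (17.5 on the wild-type and 14.6 on the FOXO1-Tg array). The scanner errors of both signals were combined in quadrature, and 95% intervals are 1.96 times that error. Over 293 probes with at least 8 spots, the SD of the log2 ratio over spots was 0.05 at the median.

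With 1 array per group, no test was made, and genes past 2-fold were counted. The members, the lists and the alternatives were chosen with earlier results of these data known. Genes named were all members, Foxo1, paralogs of members, and the 2 highest and 2 lowest detected genes of each pathway list. Map3k4, Atf4, Pmaip1, Psat1 and Btg1 fall outside it and were picked with their values known. Alternatives were median scaling, no scaling, scaling by Rplp0, quantile and loess normalization, normexp correction (offset 50) with quantile normalization, the deposited value table, looser and stricter filters on dim probes, a floor, outlier spots kept, the median over probes, and thresholds of 1.5-fold and 3-fold. The procedure was tested on simulated arrays. These held scanner error but no spread between mice, so they cannot show how reliable 1 pool per group is. The planned protein comparison was not run, as protein sequences were not used here. Computations used Python 3.11.15 with numpy 2.4.6 and pandas 2.3.3, and R 4.3.3 with limma 3.58.1.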

Additional observations from a re-analysis of the deposited data

How the results depend on the processing

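All 120 log2 ratios of the members under 12 alternatives moved by less than the scanner error, and none of the 3 members past 2-fold changed direction or fell below 2-fold. For the 8 genes with 1 probe, settings that concern dim or multiple probes leave the ratio as it is by construction. The deposited value table, identical to the signals used, and keeping outlier spots left all members' ratios unchanged. Scaling by the median, by Rplp0 or not at all adds the same constant to every ratio. With no scaling, the median of all genes shifted by 0.13, and with scaling by the median by 0.11. At a threshold of 3-fold, 1 member (Gadd45a) was higher. The counts over all genes were 700 higher and 643 lower at 2-fold. The 1.5-fold threshold gave 1529 and 1804, and the 3-fold threshold 299 and 231. Normexp background correction with quantile normalization gave 408 and 213, loess gave 417 lower, and no filter on dim probes gave 1737 lower. Higher genes made up 52.1% of those past 2-fold, and 62.1% to 68.1% with median, quantile or loess normalization, no scaling, or normexp, and 37.0% with no filter on dim probes. No paired analysis was possible because neither genotype has a second sample, and leaving out a sample was likewise impossible.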
